A study of Mus musculus with 6 samples.

Results

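The genes of the fibroblast growth factor (FGF) and platelet-derived growth factor (PDGF) system were examined in cultured mouse pulmonary artery smooth muscle cells (mPASMCs) after knockdown of the long noncoding RNA Snhg18. Members were the protein-coding genes whose symbols name an FGF ligand, an FGF receptor (with the receptor-like Fgfrl1), an FGF binding protein, a PDGF ligand, a PDGF receptor (with the receptor-like Pdgfrl), or the feedback antagonists Sprouty and Spred. There were 43 such genes among the 55487 genes of the count table, and 25 of them had enough reads to be tested. By role, 8 of 22 FGF ligands, 3 of 5 FGF receptors, 1 of 2 FGF binding proteins, 3 of 4 PDGF ligands, all 3 PDGF receptors, all 4 Sprouty genes and all 3 Spred genes were tested.

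The cells were obtained by the study from a supplier and grown in DMEM with fetal bovine serum, and were transfected either with a control small interfering RNA (si-NC) or with one against Snhg18 (si-Snhg18). Polyadenylated RNA of 3 libraries per group was sequenced, and the labels give no other difference between the groups. The oxygen level and the time after transfection are not given for these libraries in the sources used here, and neither is whether the 3 libraries of a group came from separate cultures, so p-values measure the spread between libraries, which may be technical. In such cultures, fewer cells of a type and less RNA per cell cannot be told apart.

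Most FGF ligands are secreted proteins that bind heparan sulfate and receptor tyrosine kinases at the cell surface, and PDGF ligands are dimers that bring together PDGF receptor alpha and beta chains. Both receptor families signal through adaptor proteins to the Ras-ERK and phosphatidylinositol 3-kinase pathways. Sprouty and Spred proteins act inside the cell to restrain this signalling, and Sprouty genes are induced by it. In the pulmonary artery, PDGF and FGF2 are known mitogens of smooth muscle cells and have long been studied in vessel remodeling.

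The libraries held 18097718 to 25988746 counted reads, and a count of 3 reads, the smallest level taken as measurable, was worth 0.115 to 0.164 CPM (counts relative to the library's total, normalized by TMM). Such floors cover counting error only. The mean of Snhg18 itself was 22.7 CPM (SD 0.71, n = 3) for si-NC and 10.6 CPM (SD 0.59) for si-Snhg18 (log2 fold change -1.10, SE 0.10, adjusted p = 0.00727 by edgeR's quasi-likelihood test, with Benjamini-Hochberg adjustment over all genes tested). Its adjusted p rose to 0.0659 when si-NC 1 was left out, to 0.0700 for si-NC 3 and to 0.0703 for si-Snhg18 3. For 1 gene alone, the exact two-sided permutation test of 3 against 3 libraries has a smallest p of 0.1, so calls were taken from the fit across all genes. Smooth muscle markers were abundant, with all 9 listed genes tested and summed levels of 910.0 to 981 RPKM (CPM per kilobase of exon) in si-NC and 617 to 943 RPKM in si-Snhg18. Of these 9, 6 had a log2 fold change below 0, down to -1.79. Of the 9, 1, Tagln, was called lower (adjusted p = 0.0427 by edgeR), beside 3.71% of all genes tested. With the replicate number as a block in the fit, described below, 4 were called lower, beside 13.6% of all genes tested. Leukocyte markers summed to 63.6 to 88.3 RPKM in si-NC and 41.3 to 63.0 RPKM in si-Snhg18, although Ptprc reached at most 8 counts and Adgre1 and Cd3e had none, and Cd53 was called lower (log2 fold change -1.10, adjusted p = 0.00727 by edgeR). Of the 4 leukocyte markers tested, 2 had a log2 fold change below 0 and 2 above 0. With the block, 1 of them was called lower and 1 higher, beside 13.6% of all genes tested in each direction. Fibroblast markers, a list that holds Pdgfra, summed to 118 to 126 RPKM and 87.9 to 127 RPKM, with 7 of 9 genes tested. Pericyte markers summed to 4.66 to 9.59 RPKM and 1.90 to 5.67 RPKM, with 5 of 6 genes tested, all 5 at a log2 fold change below 0 and Higd1b at 0, and Notch3 was called lower (log2 fold change -0.89, adjusted p = 0.0333 by edgeR). Endothelial markers summed to 2.89 to 3.26 RPKM and 3.02 to 3.36 RPKM, with 4 of 8 genes tested and Cldn5 at 0. Epithelial markers summed to 4.97 to 15.7 RPKM and 0.776 to 5.13 RPKM with 1 of 6 genes tested, and Sftpc and Scgb1a1 at 0. Mesothelial markers summed to 5.19 to 9.22 RPKM and 2.60 to 4.41 RPKM with 1 of 4 genes tested. Log2 fold changes were below 0 for 3 tested fibroblast and 1 endothelial markers and above 0 for 4 and 3. Those of the 1 epithelial and 1 mesothelial marker tested were below 0. With the block, 3 of 5 pericyte, 1 of 7 fibroblast, 1 of 4 endothelial, 1 epithelial and 1 mesothelial marker were called lower and none higher. Of all genes tested, 13.6% were called lower with the block. The part of these other cell types in the values that follow was not tested.

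Of the 25 tested members, 4 were lower in si-Snhg18 at an adjusted p under 0.05 and none was higher. They were the ligands Fgf10 and Pdgfd, the receptor Fgfr1 and the antagonist Spred1. This is 16% of the members tested, beside 7.36% of all 14531 genes tested, of which 3.65% were called higher and 3.71% lower. At an unadjusted p under 0.05 there were 12 members, 10 lower and 2 higher, beside 24.9% of all genes tested, 12.1% lower and 12.8% higher. Fgf10 and Pdgfd also changed by at least 1.5-fold, a size that 1.95% of all genes tested passed as lower and 1.72% as higher. The log2 fold change was below 0 for 19 of the 25 members, beside 49.2% of all genes tested, and its median was -0.23, against 0.01 over all genes tested.

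The libraries of the 2 groups carry the replicate numbers 1 to 3. With the replicate number as a block in the edgeR fit, which compares the groups within same-numbered libraries, 13 of the 25 members were called, 11 lower and 2 higher, beside 27.2% of all genes tested, 13.6% in each direction. Fgf23 passed the filter on low counts only through the si-NC libraries, and without it 12 of 24 members were called with the block, 10 of them lower. The 13 held the 4 members called without the block. The 9 added were Fgf1, Fgf2, Fgf7, Fgf23, Fgfrl1, Pdgfra and Spry2, all lower, and Fgfbp3 and Spry4, both higher. The groups did not overlap in 11 tested members that were lower and in 1 that was higher, beside 15.5% and 15.3% of all genes tested. Within same-numbered pairs of libraries, 15 members were lower in si-Snhg18 in all 3 pairs, 3 were higher in all 3 and 7 were mixed, while 30% of all genes tested were lower in all 3 pairs and 29.6% higher. Fgf23 is counted among these 11 without overlap and these 15 lower in all pairs. It is also among the members given above as below 0 and as lower at an unadjusted p under 0.05.

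The number of calls depended on single libraries. Leaving out si-NC 1, 2 or 3 left 0, 1 and 0 called members, and leaving out si-Snhg18 1, 2 or 3 left 2, 8 and 0. Over all genes tested, the same 6 fits called 0, 158, 0, 319, 3282 and 0 genes. The log2 fold changes of the 4 called members stayed below 0 in each of these fits.

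**Figure D1:**
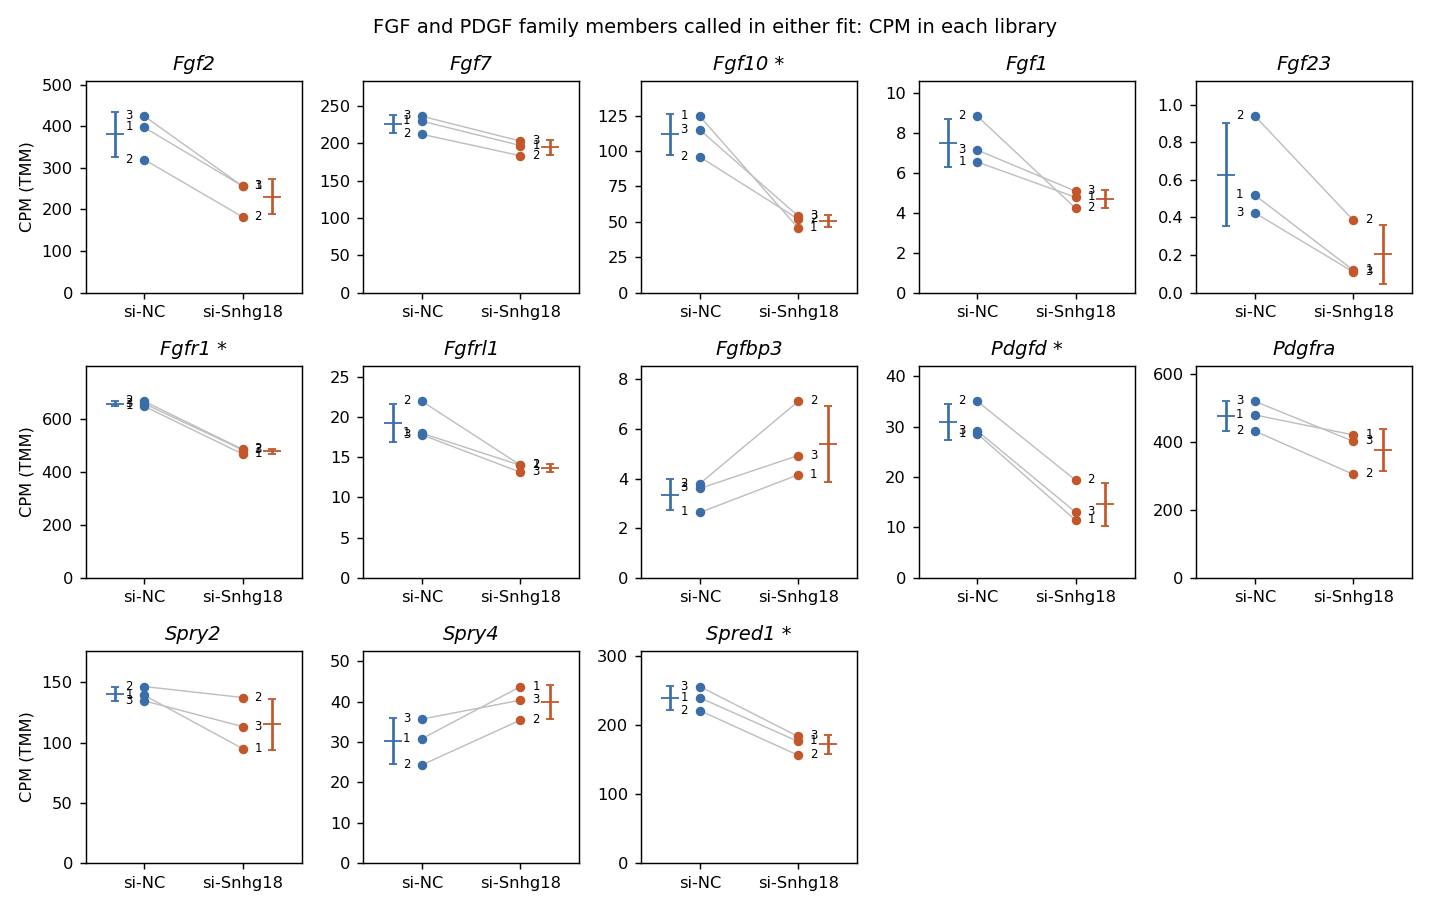
CPM (TMM) of the 13 members called with or without the replicate block, in each si-NC (blue) and si-Snhg18 (orange) library; numbers mark replicates, grey lines join equal numbers, bars give the mean and SD (n = 3), and an asterisk marks the 4 called without the block. Fgf10, Fgfr1, Pdgfd and Spred1 show no overlap between the groups, while the groups of Spry4 meet, with si-NC 3 at 35.7 CPM and si-Snhg18 2 at 35.4 CPM.

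**Figure D2:**
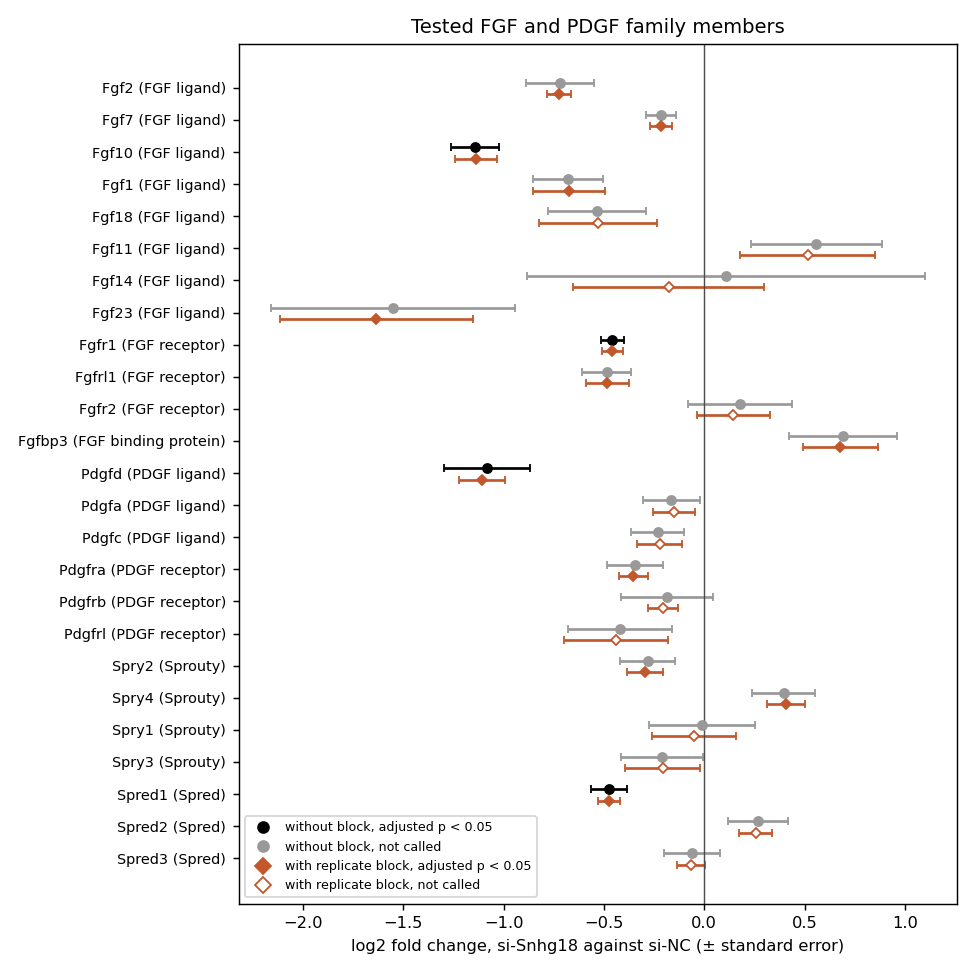
Log2 fold change of si-Snhg18 against si-NC with its standard error for the 25 tested members, by edgeR without the block (circles, black where adjusted p is under 0.05) and with the replicate block (diamonds, filled where adjusted p is under 0.05). Most points lie left of 0, and Fgf14 has the widest error without the block, 0.99 on the log2 scale.

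Among the FGF ligands, Fgf10 was the one called without the block. Fgf10 is the paracrine ligand of the FGF receptor 2 IIIb form that mesenchyme uses to drive lung branching. The gene (ENSMUSG00000021732) lies on the plus strand at chr13:118669791-118792115 of GRCm38. It was at 125, 95.8 and 115 CPM in si-NC 1, 2 and 3 and 45.6, 52.0 and 54.1 CPM in si-Snhg18 1, 2 and 3. All 3 si-Snhg18 libraries lay below all 3 si-NC libraries. The means were 112 ± 14.6 CPM and 50.6 ± 4.41 CPM (SD, n = 3), so that 45.2% of the control level remained (log2 fold change -1.14, SE 0.12, adjusted p = 0.00846 by edgeR). Leaving out 1 library at a time, its log2 fold change ran from -1.25 to -1.06 and its adjusted p from 0.00611 to 0.0783. The call was lost on leaving out 3 of the libraries, with adjusted p of 0.0659 for si-NC 1, 0.0701 for si-NC 3 and 0.0783 for si-Snhg18 3.

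Fgf2, the broadly acting ligand that lacks a signal peptide and is a mitogen of smooth muscle, had the most reads of any FGF ligand. It was at 397, 319.6 and 424 CPM in si-NC 1, 2 and 3 and 256, 182 and 256 CPM in si-Snhg18 1, 2 and 3. The groups did not overlap, with means of 380.2 ± 54.2 CPM and 231 ± 42.7 CPM. The log2 fold change of -0.72 (SE 0.17) missed the threshold in edgeR without the block (adjusted p = 0.0540) and passed it with the block (adjusted p = 0.000681). Over the other settings that kept all 6 libraries and had no block, the adjusted p of Fgf2 ran from 0.0034 with DESeq2 to 0.0597 with RLE factors, and it was past the threshold with DESeq2, without TMM factors in edgeR and without the filter on low counts. Fgf7, the keratinocyte growth factor, was the next by reads, at 229, 212 and 236 CPM in si-NC 1, 2 and 3 and 197, 183 and 203 CPM in si-Snhg18 1, 2 and 3. Its groups did not overlap either, although the difference was small (log2 fold change -0.22, SE 0.07, adjusted p = 0.136, and adjusted p = 0.0233 with the block in edgeR). The ratio within the 3 same-numbered pairs was nearly the same, at log2 values of -0.22, -0.21 and -0.22.

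Fgf1, the ligand that binds all FGF receptors, was far lower in reads, at 6.56, 8.85 and 7.15 CPM in si-NC 1, 2 and 3 and 4.78, 4.23 and 5.09 CPM in si-Snhg18 1, 2 and 3. The si-Snhg18 libraries again all lay below the si-NC ones (log2 fold change -0.68, SE 0.18, adjusted p = 0.0715, and adjusted p = 0.0314 with the block in edgeR). Fgf23, the hormone of phosphate balance that bone cells make, was close to the limit of detection, with 12, 23 and 10 counts in si-NC and 3, 10 and 2 in si-Snhg18. Its groups met at 10 counts but did not overlap by CPM, with 0.423 CPM in si-NC 3 and 0.384 CPM in si-Snhg18 2. It passed the filter on low counts only through the si-NC libraries. Its log2 fold change of -1.55 had an SE of 0.61 (adjusted p = 0.179 by edgeR, 0.0423 with the block).

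The other tested FGF ligands were called in neither fit. Fgf18, a ligand with known roles in lung and cartilage, had a log2 fold change of -0.54 (SE 0.25, adjusted p = 0.239 by edgeR) and ran from 1.42 to 1.78 CPM in si-NC and from 0.999 to 1.19 CPM in si-Snhg18, with no overlap. Fgf11 and Fgf14 belong to the intracellular FGF homologous factors, which are not secreted and bind voltage-gated sodium channels. Fgf11 ran from 1.23 to 1.51 CPM in si-NC and from 1.23 to 2.41 CPM in si-Snhg18, with si-Snhg18 2 at the low end of the si-NC range and the other two above it (log2 fold change 0.56, adjusted p = 0.342 by edgeR). Fgf14 ran from 0.0768 to 2.81 CPM within si-Snhg18 alone, both the lowest and the highest values of the 6 libraries. Its estimate changed sign with the block, from 0.11 to -0.18, with adjusted p = 0.960 and 0.815 by edgeR. The other 14 FGF ligands, Fgf3, Fgf4, Fgf5, Fgf6, Fgf8, Fgf9, Fgf12, Fgf13, Fgf15, Fgf16, Fgf17, Fgf20, Fgf21 and Fgf22, had at most 8 counts in any library, and Fgf3, Fgf4 and Fgf6 had none, so that changes in them were not detectable at this depth.

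Of the FGF receptors, Fgfr1, the main FGF receptor tyrosine kinase of mesenchymal cells, fell. The gene (ENSMUSG00000031565) lies on the plus strand at chr8:25513654-25575718 of GRCm38. It was at 646, 665 and 656 CPM in si-NC 1, 2 and 3 and 466, 484 and 482 CPM in si-Snhg18 1, 2 and 3. The spread within each group was small next to the gap between them, with means of 656 ± 9.33 CPM and 477 ± 9.73 CPM (SD, n = 3). In si-Snhg18, 72.8% of the control level remained (log2 fold change -0.46, SE 0.06, adjusted p = 0.0125 by edgeR). The log2 fold change without 1 library ran from -0.47 to -0.44 and the adjusted p from 0.00780 to 0.0933. The call was lost on leaving out 4 of the libraries, with adjusted p of 0.0933 for si-NC 1, 0.0559 for si-NC 2, 0.0875 for si-NC 3 and 0.0898 for si-Snhg18 3.

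Fgfrl1, a receptor-like protein that binds FGF ligands but lacks the kinase domain, was at 18, 22.0 and 17.8 CPM in si-NC 1, 2 and 3 and 14, 14 and 13.1 CPM in si-Snhg18 1, 2 and 3. The groups did not overlap (log2 fold change -0.49, SE 0.12, adjusted p = 0.0632, and adjusted p = 0.0157 with the block in edgeR). Fgfr2, the receptor whose IIIb form answers to Fgf7 and Fgf10, was scarce at 5.26, 4.73 and 5.84 CPM in si-NC 1, 2 and 3 and 5.85, 4.15 and 7.99 CPM in si-Snhg18 1, 2 and 3, with overlapping groups (log2 fold change 0.18, SE 0.26, adjusted p = 0.715 by edgeR). Fgfr3 had 10, 10 and 18 counts in si-NC and 9, 6 and 6 in si-Snhg18 and Fgfr4 at most 8, and neither was tested. Gene counts do not tell the IIIb and IIIc forms of a receptor apart.

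The carrier Fgfbp3, a secreted protein that binds FGFs and frees them from heparan sulfate, was the one tested member whose si-Snhg18 values all lay above the si-NC values. It was at 2.63, 3.79 and 3.60 CPM in si-NC 1, 2 and 3 and 4.15, 7.11 and 4.93 CPM in si-Snhg18 1, 2 and 3. The difference was called with the block (adjusted p = 0.0339) and not without it (log2 fold change 0.69, SE 0.27, adjusted p = 0.174 by edgeR). Fgfbp1, its relative, had at most 7 counts in a library and was not tested.

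Among the PDGF ligands, Pdgfd fell. Pdgfd encodes a ligand that is secreted in a latent form, is cut by proteases before it can act, and binds PDGF receptor beta. The gene (ENSMUSG00000032006) lies on the plus strand at chr9:6168584-6378850 of GRCm38. It was at 28.6, 35.0 and 29.1 CPM in si-NC 1, 2 and 3 and 11.4, 19.3 and 13.0 CPM in si-Snhg18 1, 2 and 3. No si-Snhg18 library reached the lowest si-NC library, although si-Snhg18 2 lay above the other two. The means were 30.9 ± 3.57 CPM and 14.6 ± 4.20 CPM (SD, n = 3), and 47.1% of the control level remained (log2 fold change -1.08, SE 0.21, adjusted p = 0.0356 by edgeR). Leaving out 1 library at a time gave log2 fold changes from -1.35 to -0.93 with adjusted p from 0.00529 to 0.164. The call was kept without si-Snhg18 2 and lost without any other library, with adjusted p of 0.130 for si-NC 1, 0.113 for si-NC 2, 0.123 for si-NC 3, 0.0831 for si-Snhg18 1 and 0.164 for si-Snhg18 3.

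Pdgfa, the ligand of PDGF receptor alpha, was at 19.0, 26.3 and 25.2 CPM in si-NC 1, 2 and 3 and 19.9, 21.4 and 21.7 CPM in si-Snhg18 1, 2 and 3, with overlapping groups (log2 fold change -0.16, SE 0.14, adjusted p = 0.514 by edgeR). Pdgfc, like Pdgfd made in a latent form but binding mainly the alpha receptor, was at 19.4, 15.6 and 20.4 CPM in si-NC 1, 2 and 3 and 16.6, 15.2 and 15.3 CPM in si-Snhg18 1, 2 and 3, also with overlap (log2 fold change -0.23, SE 0.13, adjusted p = 0.324 by edgeR). Neither was called with the block (adjusted p = 0.316 and 0.178 by edgeR). Pdgfb, the ligand that endothelial cells and platelets supply to smooth muscle, had at most 4 counts in a library and was not tested.

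The PDGF receptors were not called without the block. Pdgfra, the alpha receptor kinase and a common fibroblast marker, was at 479, 431 and 519 CPM in si-NC 1, 2 and 3 and 420.1, 304 and 401 CPM in si-Snhg18 1, 2 and 3. All si-Snhg18 values lay below the lowest si-NC value, with means of 476 ± 43.8 CPM and 375 ± 62.3 CPM, and the difference was called with the block in edgeR (adjusted p = 0.0112) and not without it (log2 fold change -0.34, SE 0.14, adjusted p = 0.189). Pdgfrb, the beta receptor kinase that smooth muscle cells and pericytes carry, was at 480.0, 355 and 506 CPM in si-NC 1, 2 and 3 and 469.9, 273 and 437 CPM in si-Snhg18 1, 2 and 3. Its groups overlapped, and in both of them replicate 2 was the lowest library (log2 fold change -0.18, SE 0.23, adjusted p = 0.665, and adjusted p = 0.0791 with the block in edgeR). Pdgfrl, a secreted receptor-like protein without a kinase, was at 2.42, 2.12 and 2.46 CPM in si-NC 1, 2 and 3 and 2.25, 1.42 and 1.53 CPM in si-Snhg18 1, 2 and 3 (log2 fold change -0.42, SE 0.26, adjusted p = 0.366, and adjusted p = 0.249 with the block in edgeR).

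Of the feedback antagonists, Spred1 fell. Spred1 is a membrane-bound inhibitor of Ras that acts by bringing neurofibromin to the membrane. The gene (ENSMUSG00000027351) lies on the plus strand at chr2:117121374-117182279 of GRCm38. It was at 239.8, 221 and 256 CPM in si-NC 1, 2 and 3 and 176, 156 and 184 CPM in si-Snhg18 1, 2 and 3. The groups did not overlap, and in both of them replicate 2 was the lowest and replicate 3 the highest. The means were 239 ± 17.4 CPM and 172 ± 14.2 CPM (SD, n = 3), which left 72.0% of the control level (log2 fold change -0.47, SE 0.09, adjusted p = 0.0331 by edgeR). Without 1 library the log2 fold change ran from -0.53 to -0.41 and the adjusted p from 0.0201 to 0.158. As for Pdgfd, the call was kept without si-Snhg18 2 and lost without any other library, with adjusted p of 0.158 for si-NC 1, 0.0768 for si-NC 2, 0.147 for si-NC 3, 0.0831 for si-Snhg18 1 and 0.118 for si-Snhg18 3.

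Spred2, its close relative, was at 126, 109.6 and 134 CPM in si-NC 1, 2 and 3 and 175, 120.0 and 149 CPM in si-Snhg18 1, 2 and 3, with its groups overlapping and the estimate above 0 (log2 fold change 0.27, SE 0.15, adjusted p = 0.326, and adjusted p = 0.0522 with the block in edgeR). Spred3 was at 55.3, 48.0 and 60.2 CPM in si-NC 1, 2 and 3 and 49.6, 45.7 and 61.5 CPM in si-Snhg18 1, 2 and 3 and its groups overlapped (log2 fold change -0.06, SE 0.14, adjusted p = 0.823 by edgeR). Spred1 alone of the 3 was called, and differences between the Spred genes were not tested.

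The Sprouty genes, which encode inducible inhibitors of receptor tyrosine kinase signalling to Ras and Raf, were not called without the block. Spry2 had the most reads, at 139, 147 and 135 CPM in si-NC 1, 2 and 3 and 94.9, 137 and 113 CPM in si-Snhg18 1, 2 and 3. In si-Snhg18, replicate 2 alone lay within the si-NC range, and Spry2 was called lower with the block in edgeR (adjusted p = 0.0456) and not without it (log2 fold change -0.28, SE 0.14, adjusted p = 0.256). Spry4 was at 30.8, 24.3 and 35.7 CPM in si-NC 1, 2 and 3 and 43.7, 35.4 and 40.4 CPM in si-Snhg18 1, 2 and 3 and was called higher with the block (adjusted p = 0.0199) and not without it (log2 fold change 0.40, SE 0.16, adjusted p = 0.186 by edgeR). Spry1 was at 13.8, 12.9 and 10.3 CPM in si-NC 1, 2 and 3 and 8.26, 16.5 and 11.8 CPM in si-Snhg18 1, 2 and 3, with both the lowest and the highest value in si-Snhg18 (log2 fold change -0.01, SE 0.26, adjusted p = 0.980 by edgeR). Spry3, on the scaffold GL456233.1 in this build, had a log2 fold change of -0.21 (SE 0.20, adjusted p = 0.566 by edgeR).

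The promoters of 3 of the 4 called members are shown, and these genes fell and come from different roles. Fgfr1, the other called member, had no promoter in the sequences used. RefSeq sequences of GRCm38.p6, taken as the 250 bases before the annotated start, were used for 31 of the 43 members. They are printed 5′ to 3′ on the plus strand for the called members Fgf10, Pdgfd and Spred1, and capitals mark the motifs found on either strand. None of the 3 windows overlaps an annotated exon. The RefSeq start of Fgf10 lies 44908 bases inside the deposited gene, that of Pdgfd 98 bases and that of Spred1 303 bases upstream of its deposited start.
Fgf10 promoter, chr13:118714449-118714698, plus strand: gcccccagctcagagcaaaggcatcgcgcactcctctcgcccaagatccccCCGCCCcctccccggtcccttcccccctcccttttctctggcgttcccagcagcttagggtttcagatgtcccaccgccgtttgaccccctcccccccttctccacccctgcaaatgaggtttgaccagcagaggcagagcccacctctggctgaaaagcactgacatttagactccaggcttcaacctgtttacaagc
Pdgfd promoter, chr9:6168236-6168485, plus strand: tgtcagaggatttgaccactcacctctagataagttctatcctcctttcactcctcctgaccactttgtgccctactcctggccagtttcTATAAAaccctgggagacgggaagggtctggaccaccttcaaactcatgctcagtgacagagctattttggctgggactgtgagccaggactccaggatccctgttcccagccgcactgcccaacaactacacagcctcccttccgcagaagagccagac
Spred1 promoter, chr2:117120821-117121070, plus strand: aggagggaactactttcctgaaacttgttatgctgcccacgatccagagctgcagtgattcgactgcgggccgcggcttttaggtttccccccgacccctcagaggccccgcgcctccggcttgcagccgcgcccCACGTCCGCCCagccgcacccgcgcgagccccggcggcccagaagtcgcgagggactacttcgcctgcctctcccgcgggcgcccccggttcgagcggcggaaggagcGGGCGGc

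The 3 windows held different motifs. The GC box, spelled GGGCGG, occurred 1 time in Fgf10, 2 times in Spred1 and not in Pdgfd, and 10 of the 19 promoters of tested members that were searched held it (52.6%), against 32.7% of all 32851 promoters of this length. The set of all promoters was not limited to genes tested here, so these shares come from unlike sets. Some of the 19 windows overlap exons or lie far from the deposited gene start, by 2856542 bases for Fgfr2. The TATA box, spelled TATAAA, was found in Pdgfd among these 3 genes, in 2 of the 19 promoters (10.5%) and in 12.4% of all promoters. The core of the hypoxia response element, spelled ACGTG, lay directly beside the upstream GC box of Spred1, and it was in 2 of the 19 promoters (10.5%) and in 16.6% of all promoters. The E-box searched, spelled CACGTG, contains that core, and was in none of the 3 windows, in 1 of the 19 promoters (5.26%) and in 6.02% of all promoters.

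The remaining motifs had no match in the 3 windows. The letters CCAAT were in 5 of the 19 promoters of tested members (26.3%) and in 33.8% of all promoters. The AP-1 element was searched as TGANTCA and was in none of the 19 promoters and in 6.75% of all promoters. The cyclic AMP response element was searched as TGACGTCA and was likewise in none of the 19, against 1.55% of all promoters. The G and C content was 61.2% for the Fgf10 window, 53.6% for Pdgfd and 70.8% for Spred1, against a median of 52.4% over all promoters. These matches describe letters in the window and not binding.

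Levels were compared between genes on a scale per length. RPKM divides CPM by the exon length deposited with each gene, and 22 of the 43 members reached 1 RPKM in the si-NC mean. Among FGF ligands the order was Fgf10 (163 ± 21.3 RPKM, SD, n = 3), Fgf7 (84.4 ± 4.66 RPKM) and Fgf2 (63.7 ± 9.07 RPKM), and the values of these 3 did not overlap in si-NC. That order rests on the deposited length of Fgf10, 685 bases. With the union of its annotated exons, 4601 bases, the si-NC means were 69.5 RPKM for Fgf7, 56.1 RPKM for Fgf2 and 24.3 RPKM for Fgf10. The fold changes between groups do not depend on this length. Deposited and union lengths were equal for 10 of the 43 members and the union was at least 2 times as long for 7. With union lengths 20 of the 43 members reached 1 RPKM in the si-NC mean.

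Among receptors in si-NC, Fgfr1 was at 131 ± 1.86 RPKM, Fgfrl1 at 8.30 ± 1.01 RPKM and Fgfr2 at 2.18 ± 0.229 RPKM. With union lengths their si-NC means were 66.4 RPKM, 6.92 RPKM and 0.511 RPKM. Pdgfrb at 82.7 ± 14.9 RPKM and Pdgfra at 72.7 ± 6.69 RPKM overlapped by the deposited lengths. With union lengths Pdgfrb was at 64.8 to 92.4 RPKM (mean 81.6 RPKM) and Pdgfra at 43.0 to 51.7 RPKM (mean 47.5 RPKM), without overlap. The PDGF ligands followed the order Pdgfa (17.3 ± 2.89 RPKM), Pdgfd (9.87 ± 1.14 RPKM) and Pdgfc (5.24 ± 0.720 RPKM) by the deposited lengths, and with union lengths Pdgfa (7.54 RPKM) was below Pdgfd (9.80 RPKM). Among the antagonists Spry2 was at 67.2 ± 2.88 RPKM, Spred1 at 39.7 ± 2.90 RPKM, Spred2 at 27.7 ± 2.78 RPKM and Spred3 at 13.4 ± 1.51 RPKM. The summed level of the FGF ligands was 316 ± 33.5 RPKM in si-NC and 189 ± 11.9 RPKM in si-Snhg18, or 154 ± 14.5 RPKM and 108 ± 9.65 RPKM with union lengths. By deposited lengths the sum was 141 ± 2.61 RPKM and 104 ± 1.89 RPKM for the FGF receptors. For the PDGF system the sums were 32.4 ± 3.35 RPKM and 24.5 ± 1.63 RPKM for the ligands and 157 ± 21.5 RPKM and 131 ± 29.2 RPKM for the receptors.

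**Figure D3:**
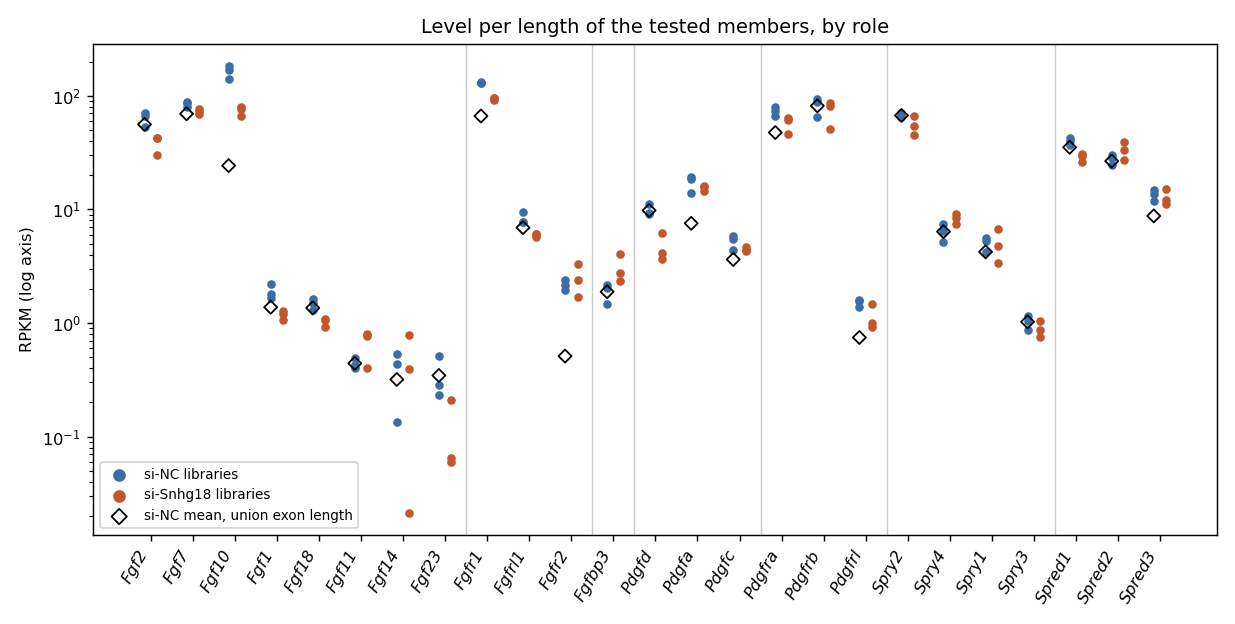
RPKM on a log axis of the 25 tested members in each si-NC (blue) and si-Snhg18 (orange) library, grouped by role between the vertical lines; diamonds give the si-NC mean with the union exon length. Fgf10 moves from 163 RPKM to 24.3 RPKM with the other length, while Pdgfd stays near 9.8 RPKM.

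The composition of the families is given as shares of the summed RPKM within each library, as a description without a test. Fgfr1 made up 98.0% to 98.5% in si-NC and 96.5% to 98.2% in si-Snhg18 of the sum of Fgfr1 to Fgfr4, so nearly all FGF receptor message was Fgfr1 in both groups. Pdgfra made up 45.2% to 50.1% in si-NC and 42.5% to 47.9% in si-Snhg18 of the sum of both PDGF receptors, and the groups overlapped. Among the PDGF ligands the share of Pdgfd went from a mean of 30.5% to 18.8% and that of Pdgfa from 53.0% to 62.9%, both without overlap between the groups. The Pdgfd share in si-NC was higher by raw counts, 42.33%, and by union lengths, 46.67%, and in si-Snhg18 it was 28.07% and 31.58%. Among the FGF ligands Fgf10 went from 51.5% to 39.2% and Fgf7 from 26.8% to 38.5%, again without overlap, while Fgf2 was at 20.1% and 20.4% with overlap. By raw counts the Fgf2 share was 51.9% in si-NC and 47.3% in si-Snhg18, and by union lengths 36.3% and 31.4%. The Fgf10 share was much smaller with raw counts, at 15.28% and 10.52%, and with union lengths, at 15.74% and 10.25%. Within the Spred genes Spred1 went from 49.2% to 38.4% and Spred2 from 34.2% to 44.3%, and within the Sprouty genes Spry2 went from 84.4% to 79.3%. A share must fall in one gene when it rises in another, so these are not separate results.

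**Figure D4:**
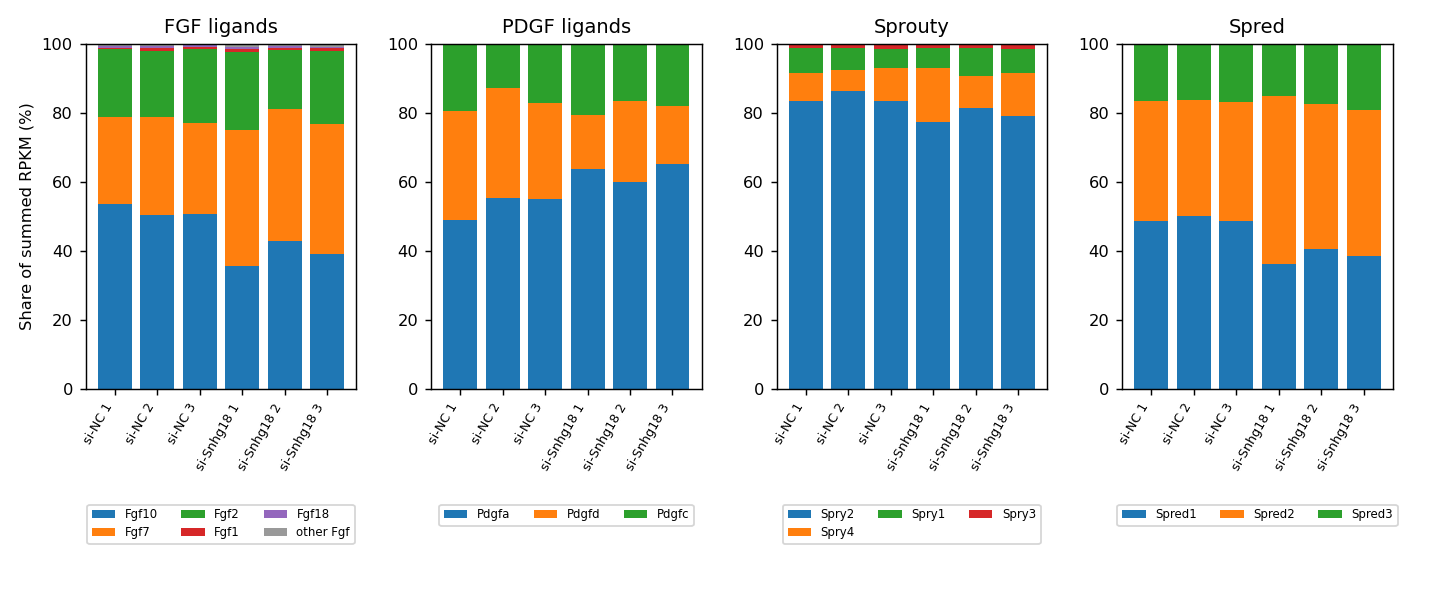
Share (%) of each gene in the summed RPKM of the FGF ligands, PDGF ligands, Sprouty and Spred genes, 1 bar per library, by deposited exon lengths. Fgf10, Pdgfd and Spred1 take smaller parts of their bars in all 3 si-Snhg18 libraries than in any si-NC library.

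Other genes of the pathway were read from 5 lists with 128 different genes for the steps around the receptors. Of 123 tested, 14 were called, 10 higher and 4 lower, which is 11.4% beside 7.36% of all genes tested. With the block 54 were called, 27 in each direction, beside 27.2% of all genes tested and 13.6% in each direction. Without si-NC 1, si-NC 3 or si-Snhg18 3 none was called, without si-NC 2 the count was 1, without si-Snhg18 1 it was 5 and without si-Snhg18 2 it was 43.

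Among co-receptors and heparan sulfate genes, 3 of 31 tested rose and 3 fell (19.4% called, beside 7.36% of all genes tested), and the median log2 fold change was 0.01. The core protein Sdc3 rose from 261 ± 19.6 CPM in si-NC to 384 ± 24.6 CPM in si-Snhg18 (log2 fold change 0.56, adjusted p = 0.0190 by edgeR). Ext2, a heparan sulfate polymerase subunit, and Ndst1, a sulfotransferase of the same chain, rose by 0.35 and 0.34 on the log2 scale (adjusted p = 0.0205 and 0.0469 by edgeR). The other core protein Sdc4 fell from 249 ± 19.4 CPM in si-NC to 151 ± 12.5 CPM in si-Snhg18 (log2 fold change -0.72, adjusted p = 0.0126 by edgeR). Nrp1, a co-receptor that also binds PDGF, and Ext1, the partner of Ext2, had log2 fold changes of -0.68 and -0.28 (adjusted p = 0.0215 and 0.0450 by edgeR). The calls of Ndst1 and Ext1 were lost with RLE factors (adjusted p = 0.0504 and 0.0505 by edgeR) and without the filter on low counts (0.0745 and 0.0904). With the block 9 were higher and 11 lower, beside 13.6% of all genes tested in each direction. The block thus added 6 higher and 8 lower genes. Among the lower ones were the sulfatase Sulf2, the adhesion molecule Ncam1 and the core protein Sdc1. Their log2 fold changes were -0.75, -0.61 and -0.66 with the block and -0.72, -0.59 and -0.63 without it.

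Of 11 tested genes that cut or bind PDGF, none was called in edgeR without the block. At an unadjusted p under 0.05 by edgeR there were 4, 3 lower and 1 higher, beside 24.9% of all genes tested. DESeq2 called 2 lower, beside 1866 genes called in either direction of 25015 with a read. With the block 3 were higher and 3 lower, beside 13.6% of all genes tested in each direction. Plau, the urokinase that can activate Pdgfd, was at 67.4 ± 15.4 CPM in si-NC and 32.6 ± 14.5 CPM in si-Snhg18 (log2 fold change -1.05, adjusted p = 0.108 by edgeR, 0.00128 with the block). Thbs1, a matrix protein that binds PDGF, was at 11825 ± 1484 CPM in si-NC and 5727 ± 2205 CPM in si-Snhg18 (log2 fold change -1.05, adjusted p = 0.0694 by edgeR, 0.00160 with the block). Sparc, another binding protein, had a log2 fold change of 0.35 and was called with the block (adjusted p = 0.00346 by edgeR).

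Of 41 tested adaptors and members of the ERK cascade, 5 rose and none fell, which is 12.2% called, beside 3.65% of all genes tested called higher and 3.71% lower. Plcg1, the phospholipase that FGF and PDGF receptors recruit directly, was at 86.3 ± 7.23 CPM in si-NC and 138 ± 8.70 CPM in si-Snhg18 (log2 fold change 0.68, adjusted p = 0.0133 by edgeR). The adaptor Nck2, the scaffold Gab2 and the Ras GTPase activator Rasa1 rose by 0.74, 0.61 and 0.73 on the log2 scale, with adjusted p from 0.0180 to 0.0344 by edgeR. Rasa1 restrains Ras, while Plcg1, Nck2 and Gab2 carry the signal on. With the block 11 were higher and 4 lower, beside 13.6% of all genes tested in each direction. Among them were the adaptor Crk and the kinases Src and Akt1, with log2 fold changes without the block of -0.34, 0.29 and 0.26. The median of the list was 0.10.

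Of 28 tested transcripts that ERK signalling induces, 1 rose and 1 fell (7.14% called, beside 7.36% of all genes tested), with a median of -0.17. The ETS factor Etv1 was at 29.3 ± 5.02 CPM in si-NC and 59.4 ± 13.4 CPM in si-Snhg18 (log2 fold change 1.02, adjusted p = 0.0377 by edgeR), and the ERK phosphatase Dusp4 fell by 0.36 on the log2 scale (adjusted p = 0.0464). The call of Dusp4 was lost without TMM factors (adjusted p = 0.0731 by edgeR) and without the filter on low counts (0.0601). With the block 3 were higher and 8 lower, beside 13.6% of all genes tested in each direction. Among the genes called only with the block were Egr1, Dusp1 and Ccnd1, the cyclin of G1 entry. Their log2 fold changes were -0.81, -0.48 and -1.90 with the block and -0.79, -0.47 and -1.69 without it. Of 13 other antagonists tested, Sh2b3, an adaptor that restrains receptor and cytokine signalling, rose from 67.1 ± 7.31 CPM in si-NC to 159 ± 34.6 CPM in si-Snhg18 (log2 fold change 1.25, adjusted p = 0.0155 by edgeR), and none fell (7.69% called). With the block Errfi1, an inhibitor of the EGF receptor, and Il17rd, an FGF antagonist, were also called lower. Their log2 fold changes were -0.97 and -0.58 with the block and -0.92 and -0.54 without it.

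**Figure D5:**
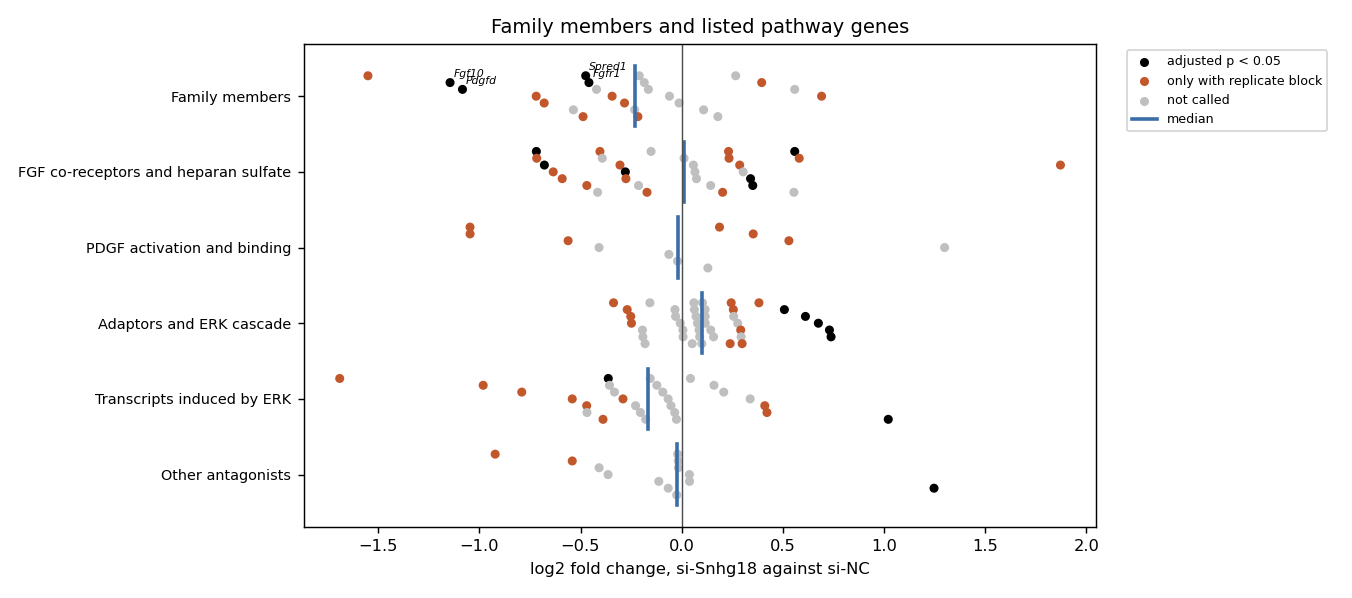
Log2 fold change of si-Snhg18 against si-NC for the 25 tested members and for the tested genes of the 5 pathway lists, 1 point per gene; black points passed adjusted p under 0.05 in edgeR without the block, orange points only with it, grey points in neither, and blue bars give medians (-0.23 for the members). The named points, labelled for the members alone, are Fgf10, Pdgfd, Fgfr1 and Spred1, and the 5 black points of the ERK cascade all lie on the right.

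Some members share exons with a gene on the other strand, and whether the reads were counted by strand is not given in the sources used here. No exon of Pdgfd or Spred1 overlaps another gene. Fgf10 shares 123 bases with the antisense gene Gm16263, which held 103 to 150 counts per library, and Fgfr1 shares 164 bases with Gm16159, which had no reads. Fgf14 shares 220 bases with the antisense gene Gm28932, which held 5 to 34 counts per library. Fgfr2 shares 314 bases with Ctbp2 on the same strand. Ctbp2 was at 44.7 to 49.8 CPM in si-NC and 52.8 to 53.7 CPM in si-Snhg18, and its part in the Fgfr2 counts was not tested. Fgf2 shares 640 bases with Nudt6, the antisense gene of Fgf2, which was at 2.85, 2.98 and 3.01 CPM in si-NC and 4.31, 4.11 and 4.93 CPM in si-Snhg18 (log2 fold change 0.59, SE 0.17, adjusted p = 0.0922 by edgeR). The Nudt6 values thus lay higher in si-Snhg18 while those of Fgf2 lay lower, without overlap in either gene. Pdgfa shares 813 bases with 6330403L08Rik, which fell by 0.63 on the log2 scale (adjusted p = 0.0463 by edgeR), while Pdgfa was not called.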

How the data were processed

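The RNA of cultures that had received si-NC or si-Snhg18 was sequenced from TruSeq Stranded mRNA libraries, 3 per group, and groups and replicate numbers were taken from the sample labels. Per the labels, the submitters' processing notes name HISAT2 and mm10. The counting program, its strand setting and the read filters are not given in the sources used here. The authors deposited whole-number counts of reads per gene without normalization, with each gene's exon length and GRCm38 position.

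The main test was the quasi-likelihood test of edgeR 4.0.16 (R 4.3.3), after filterByExpr with a minimum count of 10 and TMM normalization. P-values were adjusted by the Benjamini-Hochberg method over 14531 genes, and the threshold was an adjusted p of 0.05. RPKM is TMM-normalized CPM per kilobase of deposited exon length. Exon overlaps and union lengths come from GENCODE M21, and promoters from RefSeq (GRCm38.p6). Depth was 18097718 to 25988746 counts per library, and intervals and floors cover counting error only.

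The pairing of libraries was checked by the correlation of their deviations from the group means. Same-numbered libraries correlated at 0.410, 0.742 and 0.359, and no source says what a number shares. The main fit therefore had no block. The replicate number was used as a block in an alternative fit, and blocked values are given where they change a call. These correlations do not settle whether same-numbered libraries are pairs. Libraries of unequal number correlated at -0.661 to 0.497, with si-NC 3 and si-Snhg18 1 at 0.497, above 2 of the 3 same-numbered values, and si-NC 1 and si-Snhg18 3 at 0.186. Members, gene lists and tests were chosen with earlier results of these data known. Members named with values were those called with or without the block and the 3 of highest mean count in each role. From each pathway list at most 6 called genes and 3 called only with the block were named, and 1 called gene is not reported here. Alternatives were DESeq2 1.42.0, limma-voom (limma 3.58.1), RLE factors, no TMM factors, no filter or a minimum count of 30, the block, and leaving out each library. The block in limma-voom and union exon lengths were added after seeing the data.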

Additional observations from a re-analysis of the deposited data

How the results depend on the processing

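Under the alternatives, 4 members were called with limma-voom, RLE factors or a minimum count of 30, and 5, with Fgf2 added, without TMM factors or without a filter. Over all genes, limma-voom called 1036, RLE factors 1058 and no TMM factors 1105 of 14531. A minimum count of 30 called 1171 of 12654 genes, and no filter 877 of 25015. DESeq2 called 7, all lower, with Fgf1, Fgf2 and Fgfrl1 added and 4 of the 7 changed at least 1.5-fold, and 25 genes of the pathway lists. With the replicate block, edgeR called 13 (2 higher, 11 lower, 6 of at least 1.5-fold) and 54 of the pathway lists, and limma-voom with the block 14 (3 higher, 11 lower, 6 of at least 1.5-fold) and 57. Over all genes, DESeq2 called 1866 of 25015 with a read, edgeR with the block 3954 of 14531 and limma-voom with the block 3981 of 14531. The 25015 include genes to which DESeq2 gave no adjusted p, so its share is not of genes tested. Among the members DESeq2 gave 24 an adjusted p, and Fgf23 had none. In edgeR the pairing changed no other call among the 25 tested members, and limma-voom with the block added Spred2. Leaving out 1 library at a time gave 0 to 8 called members, 0 to 8 lower, 0 to 3 of at least 1.5-fold and 0 to 43 pathway genes. For Snhg18 it gave log2 fold changes of -1.14 to -1.06 with adjusted p from 0.00474 to 0.0703. Over 125 such values for the named members, 96 kept direction and side of the threshold, 17 lost the call, 4 gained one and 8 changed sign. Over 166 values from the other settings, 141 kept both, 24 gained a call and 1 changed sign. The changes of sign were all in members that were not called. With 1 library left out, log2 fold changes ran from -0.078 (without si-Snhg18 3) to 0.38 for Fgfr2, -0.33 to 0.017 (without si-Snhg18 2) for Pdgfrb, -0.19 to 0.024 for Spred3 (above 0 without si-NC 3 or si-Snhg18 2) and -0.30 to 0.20 for Spry1 (above 0 without si-NC 1, si-NC 2, si-Snhg18 1 or si-Snhg18 3), and without TMM factors Spry1 was at 0.0034. The cause was not tested.

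Shares within a family depended on the gene length, by construction. The mean share of Fgfr1 was 98.26% in si-NC and 97.34% in si-Snhg18, and 99.11% and 98.66% by raw counts, 99.11% and 98.63% by union lengths. That of Pdgfra was 47.02% and 44.50%, against 51.80% and 49.26% by raw counts and 37.02% and 34.69% by union lengths. The share of Pdgfd was 42.33% and 28.07% by raw counts and 46.67% and 31.58% by union lengths, and that of Fgf10 15.28% and 10.52% and 15.74% and 10.25%. Depth limits the 18 members that were not tested, with at most 18 counts per library.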

Other observations

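Among the listed pathway genes, Flrt3 and Plat lay farthest above 0, and both were chosen after their values were seen. Flrt3, a membrane protein that binds FGF receptors, was at 0.906, 0.898 and 0.720 CPM in si-NC 1, 2 and 3 and 4.19, 1.5 and 3.61 CPM in si-Snhg18 1, 2 and 3 (log2 fold change 1.87, SE 0.43, adjusted p = 0.0510, and adjusted p = 0.0128 with the block in edgeR). Plat, the tissue plasminogen activator that cuts latent Pdgfc, was at 243, 66.6 and 331 CPM in si-NC 1, 2 and 3 and 1012, 69.7 and 495 CPM in si-Snhg18 1, 2 and 3, with a log2 fold change of 1.30 (SE 0.94, adjusted p = 0.439 by edgeR and 0.0802 with the block). The groups of Plat overlapped and those of Flrt3 did not overlap. Fgf2 and Spry1 are neighbours, 229839 bases apart on chromosome 3, with log2 fold changes of -0.72 and -0.01.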
